A study of Mus musculus with 34 samples.

Results

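*Myc*, *Mycn*, *Mycl*, *Max*, *Mxd1*, *Mxd4*, *Mxi1* and *Mnt*, called here the Myc network, are 8 of the 23509 genes counted in mouse kidney. They were listed by name, with earlier results of these data known, and all 8 passed the filter on low counts, which kept 15644 genes. The kidneys came from 34 mice on the C57BL6 background, harvested on postnatal day 28 (P28), and polyadenylated RNA was sequenced as 1 library per mouse. PBS mice (n = 11) and RGLS4326 mice (n = 11) carried the *Pkd2* knockout, which the labels spell "Pdk2KO", and were injected subcutaneously on P10, P11, P12 and P19 with saline buffer (PBS) or with RGLS4326 at 20 mg per kg. Age-matched UNT mice (n = 12) were non-transgenic and were not injected. RGLS4326 is an oligonucleotide that binds the seed of the microRNA miR-17. The PBS and UNT groups therefore differed in both genotype and injection, which cannot be told apart here. By the study's description *Pkd2* was deleted by a *Pkhd1*-driven Cre, which is known to act mainly in collecting ducts, and the litters of the mice are not given in the sources used here.

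Myc proteins are transcription factors that bind DNA only when paired with Max, mostly at the sequence CACGTG, called an E-box, and raise the transcription of genes for ribosome assembly, nucleotide synthesis and cell division. The Mxd proteins, Mxi1 and Mnt compete for Max, bind the same sequence and recruit Sin3 and histone deacetylases, which repress transcription. In kidney, transgenic overproduction of Myc in tubules causes cysts in mice, and Myc is known to bind at *Mir17hg*, the gene whose RNA is cut into the microRNAs of the miR-17-92 cluster.

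The miR-17 family is defined by 1 shared seed, bases 2 to 8, written in capitals in the mature sequences below. The 4 sequences are those that lie inside genes measured here by GENCODE M21, and they show the seed that RGLS4326 was made to block. The sequences and positions are from RefSeq on GRCm38.p6, whose own model of *Mir17hg* starts after miR-17 and miR-20a. On chromosome X, miR-20b-5p and miR-106a-5p carry the same seed, AAAGUGC.
miR-17-5p (inside *Mir17hg*, chr14:115043684-115043706, plus strand): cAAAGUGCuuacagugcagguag
miR-20a-5p (inside *Mir17hg*, chr14:115044183-115044205, plus strand): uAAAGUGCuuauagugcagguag
miR-93-5p (inside *Mcm7*, chr5:138165574-138165596, minus strand): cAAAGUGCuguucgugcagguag
miR-106b-5p (inside *Mcm7*, chr5:138165787-138165807, minus strand): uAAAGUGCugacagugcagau

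Of the 8 members, 4 held 1 match each to this seed in the longest annotated 3′UTR (GENCODE M21, GRCm38), and *Myc*, *Max*, *Mxd1* and *Mxd4* held none. A match was GCACTTT or CACTTTA, which overlap in the 8-base form GCACTTTA, and 21.9% of the 14200 tested genes with an annotated 3′UTR held at least 1. Only *Mnt* among the members held the 8-base form, which 4.26% of those genes held. Windows of 30 bases are shown to tell the members with a match from those without when the treated mice are compared, with the match in capitals.
*Mnt* (chr11:74844627-74844656, plus strand): aacctcccaggGCACTTTAttattattatt
*Mycn* (chr12:12936127-12936156, minus strand): tgcaccttagaGCACTTTgaaatacctcat
*Mycl* (chr4:123001060-123001089, plus strand): tcaccgtcagaCACTTTAcagtagctgtgg
*Mxi1* (chr19:53375070-53375099, plus strand): cttatgtgcatGCACTTTgggcatcattct

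The E-box is the network's own binding sequence, so the promoters of the members were searched for CACGTG, which reads the same on both strands. RefSeq (GRCm38.p6) gave 9 promoters of 7 members, from 250 bases before to 50 bases after the start, and *Max*, *Mxd4* and *Mnt* held 1 E-box each. Of all 32851 promoters of this length, 7.15% held one. A match is a description of the sequence and not a bound site. The E-box, in capitals, began 3 bases before the RefSeq start of *Max*, 219 before that of *Mxd4* and 123 before that of *Mnt*. The gene positions given below are from GENCODE M21, whose starts of these genes differ from those of RefSeq.
*Max* (chr12:76962234-76962263, minus strand): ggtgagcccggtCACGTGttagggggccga
*Mxd4* (chr5:34187912-34187941, minus strand): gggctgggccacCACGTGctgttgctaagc
*Mnt* (chr11:74830789-74830818, plus strand): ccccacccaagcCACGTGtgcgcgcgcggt

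The file names number the libraries in 3 series, called number series here, and what they stand for is not given in the sources used here. Libraries held between 17603122 and 54981992 reads in genes, and each member had at least 45 counts in every library. Levels are CPM (counts scaled to a common library size) after TMM scaling. Differences are log2 fold changes with standard errors (SE) derived from the quasi-likelihood test of edgeR. Its p-values had Benjamini-Hochberg adjustment over all 15644 genes, with a threshold of 0.05. Reads that fell in no gene made up 9.84% to 11.3% of the reads in UNT, 5.18% to 8.995% in PBS and 4.94% to 12.0% in RGLS4326 libraries. Reads without a unique alignment made up 22.8% to 25.7% in UNT, 14.8% to 19.4% in PBS and 14.8% to 19.1% in RGLS4326 libraries. Neither share overlapped between UNT and PBS. The 6 proximal tubule markers examined (*Lrp2*, *Slc34a1*, *Slc5a2*, *Slc22a6*, *Slc22a8* and *Cubn*) had counts in every library. Exons of *Mxi1* and *Mxd4* overlap annotated genes on the opposite strand, and the strand setting of the counting is not given in the sources used here, so their counts may hold reads of those genes.

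The first comparison asked how the network differed between cystic and normal kidneys. *Myc* and *Mycl* were several-fold higher in PBS than in UNT mice, *Mycn* was moderately higher, and 2 antagonists, *Mxd4* and *Mnt*, were higher as well, while *Mxi1* and *Mxd1* were slightly lower. All 8 members passed the threshold, 6 higher and 2 lower, where 82.1% of all tested genes passed, 43.1% higher and 39.0% lower. The groups did not overlap for 4 members (*Myc*, *Mycl*, *Mxd4* and *Mnt*, all higher), against 42.5% of all genes, 22.7% with the PBS mice higher. The number of members called was thus near the background, and the sizes of the differences carry the description that follows. The median log2 fold change over the members was 0.53, against 0.04 over all genes.

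*Myc* (chr15:61985391-61990374, plus strand), the central member, was lowest at 7.49, in the middle at 10.2 and highest at 13.7 CPM among UNT mice. Among PBS mice the lowest, median and highest values were 40.1, 52.2 and 66.7 CPM. Every PBS mouse stood far above every UNT mouse. The log2 fold change was 2.30 (SE 0.10, adjusted p = 1.7e-21 by edgeR), or 4.93-fold, and over the 48 alternative settings tried it ranged from 2.13 to 2.46 with every call kept. In a whole kidney, a change in the RNA of a cell and a change in the number of cells that carry it cannot be told apart.

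*Mycl* (chr4:122995652-123002485, plus strand), a family member with weaker transforming activity, ran from 2.47 through a median of 3.26 to 4.11 CPM in UNT mice. In PBS mice it ran from 8.38 through 10.5 to 14.5 CPM, so the groups did not overlap. Its log2 fold change was 1.74 (SE 0.11, adjusted p = 3.5e-17 by edgeR), and it ranged from 1.54 to 1.86 over the 48 settings, all of them called. *Mycn* (chr12:12936093-12941914, minus strand), the family member of the developing kidney and nervous system, was at 3.05, 3.81 and 5.08 CPM (lowest, median and highest) in UNT mice and at 4.09, 6.07 and 7.50 CPM in PBS mice. Of the 11 PBS mice, 9 were above the highest UNT mouse, so the groups overlapped in few animals. Its log2 fold change was 0.60 (SE 0.10, adjusted p = 2.3e-06 by edgeR).

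*Max* (chr12:76937269-76962201, minus strand), the partner shared by the other members, differed little. It was at 55.5, 58.6 and 68.5 CPM (lowest, median and highest) in UNT mice and at 58.3, 67.9 and 71.0 CPM in PBS mice, and the groups overlapped over most of their range. The log2 fold change was 0.13 (SE 0.05, adjusted p = 0.013 by edgeR). This call did not hold with DESeq2 size factors in edgeR (0.09, adjusted p = 0.059), in DESeq2 (adjusted p = 0.054), without the filter (adjusted p = 0.096), or without PBS replicate 9 (0.08, adjusted p = 0.089).

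Among the antagonists, *Mxd4* (chr5:34173883-34187720, minus strand), which accumulates in differentiating and resting cells, was at 35.1, 43.6 and 58.2 CPM in UNT mice and at 65.0, 74.1 and 87.7 CPM in PBS mice (lowest, median and highest). The groups did not overlap, and the log2 fold change was 0.75 (SE 0.08, adjusted p = 2.9e-11 by edgeR). *Mnt* (chr11:74830920-74845725, plus strand), the broadly expressed antagonist, was at 22.8, 29.6 and 36.4 CPM in UNT mice and at 36.5, 40.4 and 44.9 CPM in PBS mice. The lowest PBS mouse stood just above the highest UNT mouse, and the log2 fold change was 0.45 (SE 0.09, adjusted p = 1.2e-05 by edgeR).

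*Mxi1* (chr19:53310518-53375810, plus strand) moved the other way. It was at 70.9, 78.7 and 99.4 CPM in UNT mice and at 57.2, 73.4 and 75.5 CPM in PBS mice, a difference of -0.23 on the log2 scale (SE 0.07, adjusted p = 0.0017 by edgeR). All 11 PBS mice were below the UNT mean, but only 5 were below the lowest UNT mouse. *Mxd1* (chr6:86647042-86669161, minus strand), a gene induced during terminal differentiation, was at 20.8, 24.2 and 26.6 CPM in UNT mice and at 18.7, 20.95 and 23.9 CPM in PBS mice. Its log2 fold change was -0.17 (SE 0.07, adjusted p = 0.021 by edgeR), and all 11 PBS mice were again below the UNT mean.

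**Figure D1:**
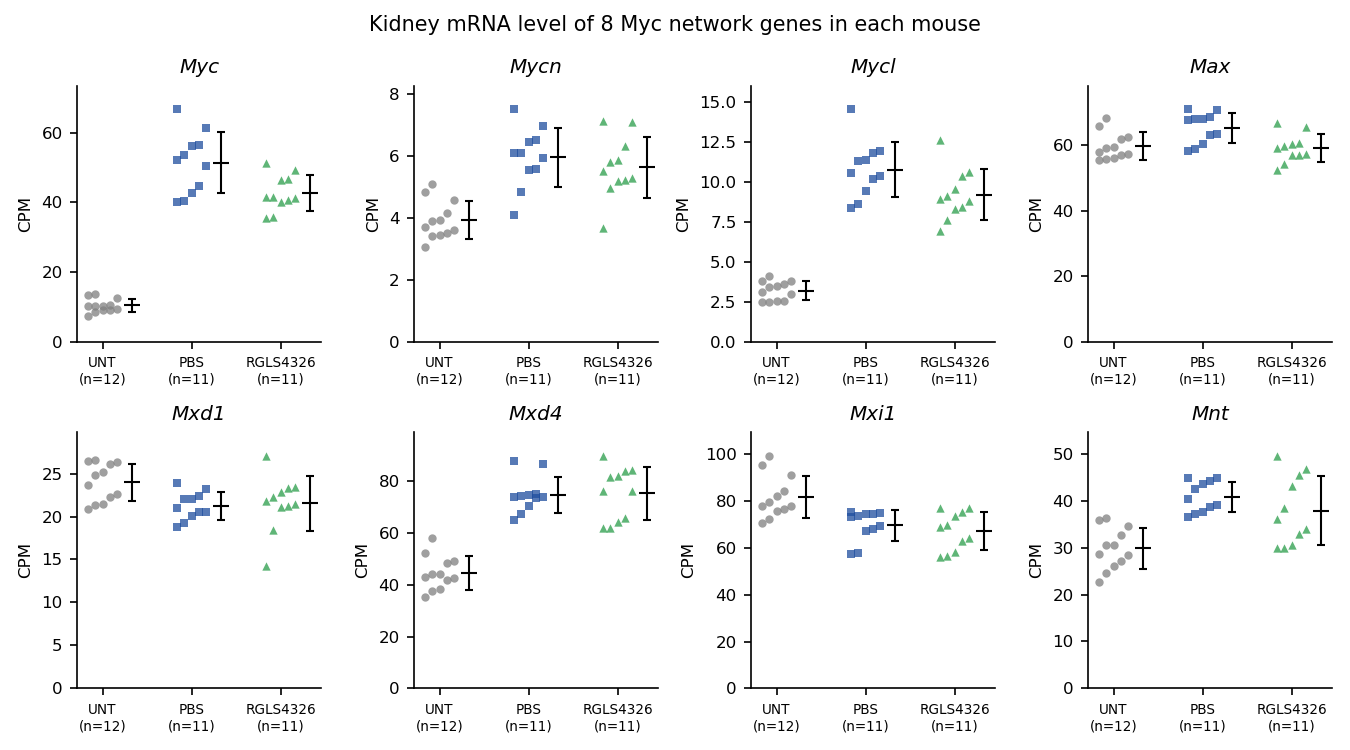
Level of the 8 Myc network genes in each kidney (y axis, CPM from 0, a different scale for each gene) in UNT (grey circles, n = 12), PBS (blue squares, n = 11) and RGLS4326 mice (green triangles, n = 11), with the mean ± SD in black beside the points. For *Myc*, the PBS mice sit between 40.1 and 66.7 CPM, all above the UNT mice, whose highest value is 13.7 CPM.

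Several calls were lost with either of the 2 shares of reads that separate UNT from PBS libraries in the model. With the share without a unique alignment, *Myc*, *Mycl* and *Mycn* passed (3 of 8). The log2 fold changes of *Mxi1* (-0.24), *Mnt* (0.41) and *Mxd1* (-0.14) were then close to those without it, but with larger SE (0.16, 0.21 and 0.17), while *Mxd4* was at 0.28 and *Max* at 0.05. With the share in no gene, 5 of 8 passed, *Mxd4* at 0.54 and *Mxi1* at -0.38 among them, and *Mnt* was at 0.18, *Max* at 0.01 and *Mxd1* at 0.07. Both shares differed with the group, so their effects cannot be told apart in PBS vs UNT. Within single number series of 3 or 4 libraries a group, *Mycn* was not called in number series 3 (0.31, adjusted p = 0.16 by edgeR), *Mxi1* not in number series 2 (-0.10, adjusted p = 0.29) or number series 3 (-0.26, adjusted p = 0.068). *Max* and *Mxd1* lost their call in each of the 3.

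The second comparison asked how the network differed after RGLS4326. *Myc* and *Max* were slightly lower in RGLS4326 than in PBS mice, and the other 6 members did not pass the threshold. These 2 of 8 members, both lower, compare with 33.8% of all tested genes that passed and 18.5% that passed as lower. No member had groups without overlap, as was the case for 0.0639% of all genes. The median log2 fold change over the members was -0.09, against 0.00224 over all genes.

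*Myc* was at 35.5, 41.6 and 51.3 CPM (lowest, median and highest) in RGLS4326 mice, and all 11 were below the PBS mean of 51.4 CPM, 3 of them below the lowest PBS mouse. The log2 fold change was -0.26 (SE 0.09, 95% interval -0.46 to -0.07, adjusted p = 0.031 by edgeR), so the level fell by 16.8%. The difference had the same direction within each of the 3 number series (-0.44, -0.17 and -0.17), with edgeR adjusted p of 0.087, 0.55 and 0.53. The call was also lost with the no-gene share in the model (-0.25, adjusted p = 0.21), without the filter (adjusted p = 0.050029), and when RGLS4326 replicate 1 or 6 or PBS replicate 2, 4 or 9 was left out (adjusted p up to 0.072).

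*Max* was at 52.4, 59.3 and 66.9 CPM in RGLS4326 mice, and 5 of the 11 were below the lowest PBS mouse. Its log2 fold change was -0.14 (SE 0.05, adjusted p = 0.023 by edgeR), and it did not pass without PBS replicate 9 (-0.12, adjusted p = 0.056), in number series 1 or number series 3 alone (adjusted p of 0.33 and 0.62) or with the no-gene share in the model (adjusted p = 0.33). *Mycl* was at 6.90, 8.94 and 12.6 CPM in RGLS4326 mice, and 10 of the 11 were below the PBS mean. The log2 fold change was -0.22 (SE 0.10, 95% interval -0.44 to -0.01, adjusted p = 0.088 by edgeR), and without RGLS4326 replicate 3 it was -0.28 with an adjusted p of 0.033.

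*Mycn* was at 3.66, 5.50 and 7.11 CPM in RGLS4326 mice, with a log2 fold change of -0.08 (95% interval -0.29 to 0.14, adjusted p = 0.57 by edgeR). *Mnt*, the member with the 8-base seed match, was at 29.9, 36.2 and 49.6 CPM, with a log2 fold change of -0.11 (95% interval -0.29 to 0.07, adjusted p = 0.34). *Mxi1*, which also holds a match, was at 56.0, 68.7 and 77.1 CPM, with a log2 fold change of -0.05 (95% interval -0.19 to 0.09, adjusted p = 0.56). The 4 members with a match thus had log2 fold changes between -0.22 and -0.05 and none was called over all number series. In number series 2 alone, *Mnt* (-0.45, adjusted p = 0.010 by edgeR) and *Mycl* (-0.41, adjusted p = 0.046) were called lower, and in number series 1 and 3 neither was, with *Mnt* at 0.02 and 0.00495 and *Mycl* at -0.02 and -0.29. An increase of up to 0.14 in *Mycn* lies within its interval.

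*Mxd4* was at 61.8, 76.2 and 89.8 CPM in RGLS4326 mice (log2 fold change 0.01, 95% interval -0.15 to 0.17, adjusted p = 0.93 by edgeR) and *Mxd1* at 14.2, 21.8 and 27.1 CPM (log2 fold change 0.02, 95% interval -0.12 to 0.17, adjusted p = 0.82). For both genes the RGLS4326 values reached below and above those of the PBS mice.

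**Figure D2:**
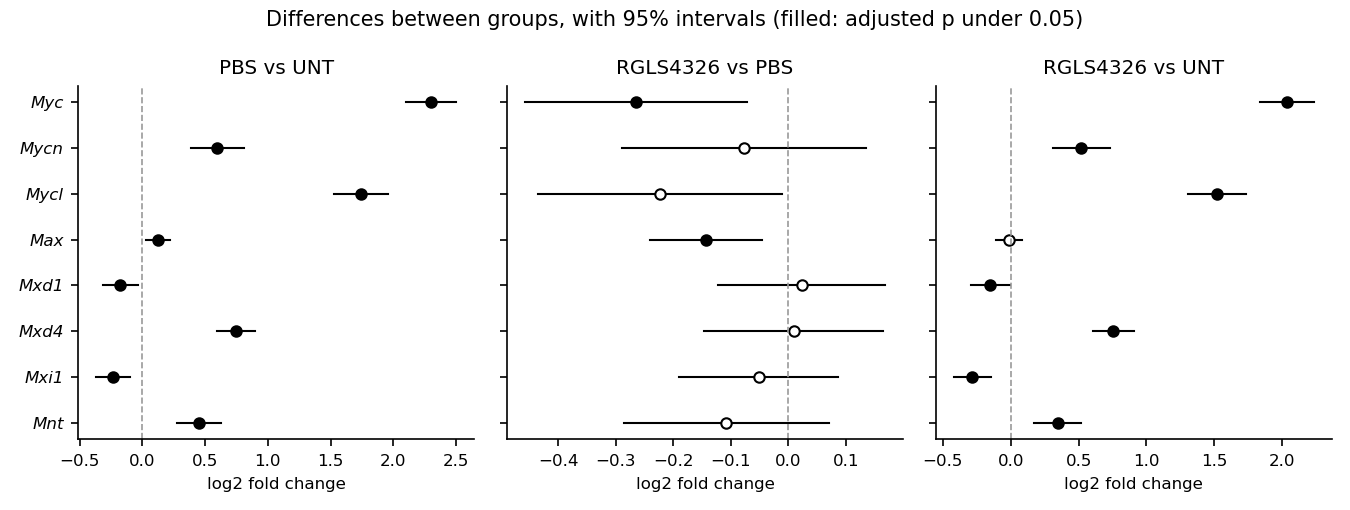
Log2 fold change (x axis, a different range in each panel) of each Myc network gene in PBS vs UNT, RGLS4326 vs PBS and RGLS4326 vs UNT. Points are edgeR estimates and lines their 95% intervals. Filled points passed an adjusted p of 0.05, which all 8 did in the first panel, *Myc* and *Max* in the second, and all but *Max* in the third.

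Several of these values differed with 1 property of the libraries. In 4 RGLS4326 libraries (replicates 5, 6, 7 and 11), 11.3% to 12.0% of the reads fell in no gene, against 4.94% to 8.92% in the other 7. Replicates 5, 6 and 7 are all the RGLS4326 libraries of number series 2, so the share and that series cannot be told apart for them. *Mnt* was at 29.9 to 32.96 CPM in these 4 and at 34.1 to 49.6 CPM in the other 7. *Mxd4* was at 61.8 to 65.8 against 76.1 to 89.8 CPM. *Mxd1* was higher in the 4, at 22.8 to 27.1 against 14.2 to 22.2 CPM. These 3 of 8 members did not overlap between the 4 and the 7 libraries, where 19.9% of all tested genes did not, 8.64% higher and 11.2% lower in the 4. *Myc* did overlap, at 40.6 to 51.3 against 35.5 to 49.4 CPM. The part of this share in the levels was not tested.

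**Figure D3:**
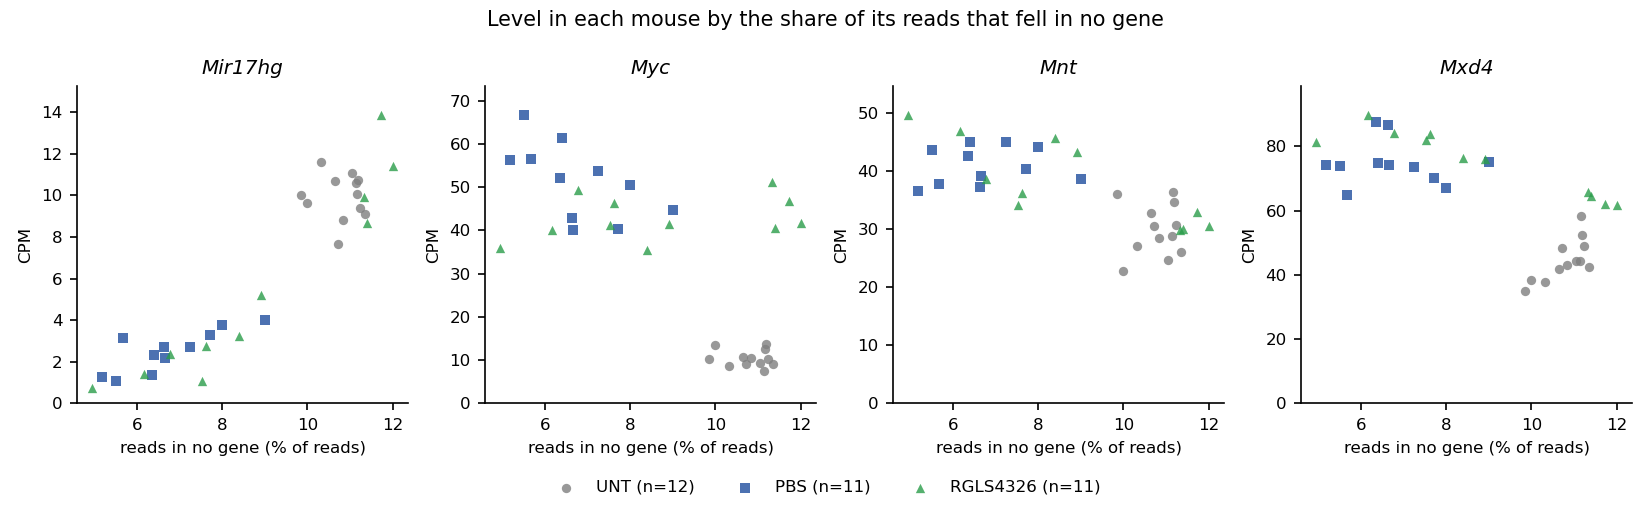
Level (y axis, CPM from 0) of *Mir17hg*, *Myc*, *Mnt* and *Mxd4* in each mouse by the percent of its reads that fell in no gene (x axis), in UNT (grey circles, n = 12), PBS (blue squares, n = 11) and RGLS4326 mice (green triangles, n = 11). The 4 RGLS4326 libraries above 11% lie above the other RGLS4326 mice for *Mir17hg*, 3 of them within the UNT range, and below the other RGLS4326 mice for *Mnt* and *Mxd4*, while their *Myc* values, 40.6 to 51.3 CPM, overlap the 35.5 to 49.4 CPM of the other RGLS4326 mice.

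RGLS4326 mice were also set against UNT mice, to show how far the network remained from the normal kidney. *Myc* stayed higher by 2.04 on the log2 scale (SE 0.10, adjusted p = 6.1e-20 by edgeR), *Mycl* by 1.52 (adjusted p = 2.2e-15), *Mxd4* by 0.76 (adjusted p = 2.8e-11), *Mycn* by 0.52 (adjusted p = 2.6e-05) and *Mnt* by 0.35 (adjusted p = 0.00048). *Mxi1* was lower, differing by -0.28 (adjusted p = 0.00022) and *Mxd1* by -0.15 (adjusted p = 0.047). *Max* was not called, at -0.02 (95% interval -0.11 to 0.08, adjusted p = 0.77). This made 7 of 8 members called, 5 higher and 2 lower, against 77.7% of all genes, 40.8% higher and 36.9% lower. In 3 (*Myc*, *Mycl* and *Mxd4*, all higher) the groups did not overlap, against 36.7% of all genes, 20.7% with the RGLS4326 mice higher. With the share without a unique alignment in the model, 3 of 8 passed (*Myc*, *Mycl* and *Mycn*), while *Mxi1* (-0.29) and *Mnt* (0.30) were nearly as large with larger SE (0.17 and 0.22) and *Mxd4* was at 0.27. Within single number series, *Mnt* was at 0.03 in number series 2 (adjusted p = 0.79 by edgeR), and *Mycn* was not called in number series 1 (0.35, adjusted p = 0.10) or number series 3 (0.40, adjusted p = 0.084). *Mxd1* was at -0.00572 in number series 2 (adjusted p = 0.96 by edgeR) and at -0.13 in number series 3 (adjusted p = 0.40). The call of *Mxd1* was lost in 20 of the 34 fits that left out 1 library (largest adjusted p 0.11). That call was also lost with the share in no gene in the model (-0.04, adjusted p = 0.60 by edgeR) and with upper-quartile scaling (adjusted p = 0.077).

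Levels were compared between members only per kilobase of exon. In UNT kidneys *Max* was the most abundant at 16.6 ± 1.17 CPM per kb (SD, n = 12), followed by *Mxi1* at 12.0 ± 1.32, *Mnt* at 6.46 ± 0.95 and *Mxd4* at 5.25 ± 0.77. *Myc* had rank 5 at 3.84 ± 0.72 CPM per kb, above *Mxd1* in 10 of 12 mice. *Mycn* at 1.19 ± 0.19 and *Mycl* at 0.79 ± 0.15 CPM per kb were last, in this order in 12 of 12 mice. *Mxd4*, the antagonist next above *Myc*, exceeded it in 11 of 12 mice.

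In PBS kidneys *Myc* reached 18.9 ± 3.21 CPM per kb (SD, n = 11) by joined exons, near *Max* at 18.2 ± 1.30, and stood above it in 6 of 11 mice. By the longest transcript the order was different, with *Myc* at 22.0 ± 3.73 CPM per kb (highest 28.5) and *Max* at 33.6 ± 2.41 (lowest 30.01). *Mxi1* at 10.2 ± 0.97 was the third, and *Mnt* at 8.84 ± 0.70 and *Mxd4* at 8.81 ± 0.82 were not separated by joined exons, with *Mnt* higher in 6 of 11 mice. *Mycl* at 2.67 ± 0.43 CPM per kb was above *Mycn* at 1.81 ± 0.29 in 11 of 11 mice, the reverse of their order in UNT mice. In RGLS4326 kidneys *Max* at 16.4 ± 1.20 was above *Myc* at 15.7 ± 1.89 CPM per kb in 7 of 11 mice. By the longest transcript *Max* was first in every group, *Myc* ranked sixth in UNT and second in PBS mice, and *Mxd4* was above *Mxi1* in PBS (16.2 against 13.8 CPM per kb) and RGLS4326 mice (16.3 against 13.4). By that length *Mxd4* was also above *Mnt*, at 9.63 against 6.51 CPM per kb in UNT and 16.2 against 8.91 in PBS mice, where the values did not overlap.

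The balance between the Myc family and its antagonists was summed per mouse from these values. *Myc*, *Mycn* and *Mycl* together were 0.216 ± 0.0328 (SD, n = 12) of the sum of *Mxd1*, *Mxd4*, *Mxi1* and *Mnt* in UNT mice. The ratio was 0.761 ± 0.126 (n = 11) in PBS mice and 0.669 ± 0.125 (n = 11) in RGLS4326 mice, with ranges of 0.598 to 0.933 and 0.494 to 0.872 that overlapped each other and not the UNT range of 0.169 to 0.283. *Myc* made up 65.5%, 80.6% and 79.7% of the family in the 3 groups. These ratios of RNA, all by joined exons, are descriptions and carry no test.

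**Figure D4:**
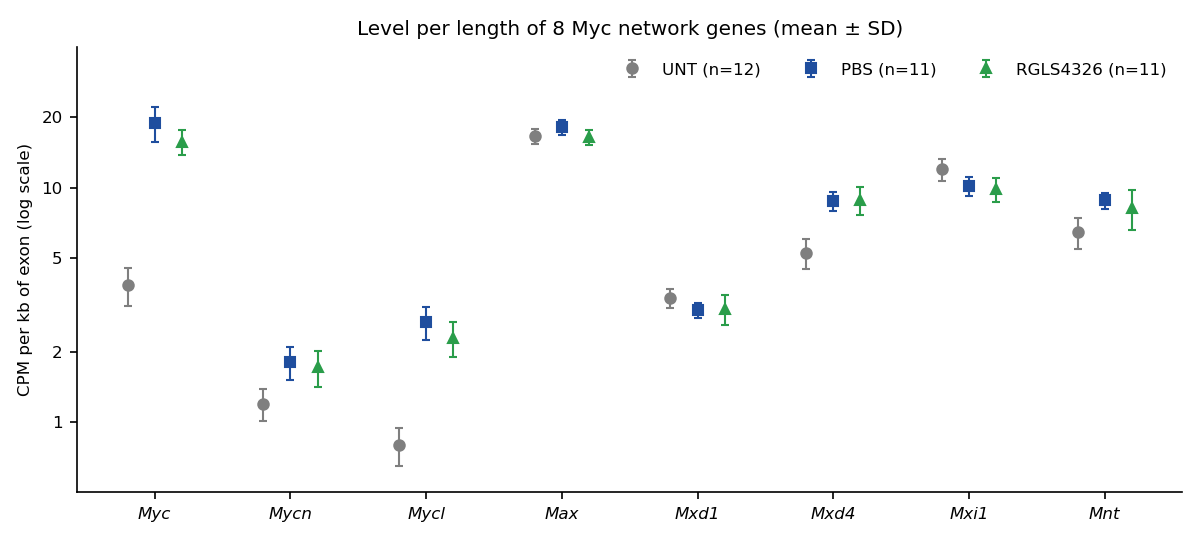
Level of each Myc network gene per kilobase of all exons joined (y axis, CPM per kb on a log scale) as mean ± SD over UNT (grey circles, n = 12), PBS (blue squares, n = 11) and RGLS4326 mice (green triangles, n = 11). *Myc* rises from 3.84 in UNT to 18.9 CPM per kb in PBS mice, near *Max*, while *Max* itself stays between 16.4 and 18.2 CPM per kb.

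Within each group, the level of *Myc* was compared between mice with that of the other 7 members and *Mir17hg* on the log2(CPM + 1) scale, 24 relations in all. In PBS mice *Myc* and *Max* varied together (Pearson's r = 0.869, permutation p = 0.00069, adjusted p = 0.017, Spearman's rho = 0.809, permutation p = 0.0039, adjusted p = 0.046, n = 11). With values centred within number series r was 0.934, and without the 2 mice farthest from the median of *Myc* it was 0.750, with a permutation adjusted p of 0.37. With DESeq2 size factors it was 0.834 (permutation adjusted p = 0.051). In UNT and RGLS4326 mice r was 0.520 and 0.0668, with permutation adjusted p of 0.37 and 0.92. In RGLS4326 mice *Myc* and *Mxi1* ran opposite by rank (rho = -0.836, permutation p = 0.0023, adjusted p = 0.046), but r was -0.701 (permutation p = 0.018, adjusted p = 0.22), -0.705 with values centred within number series and -0.598 without the 2 farthest mice, where rho was -0.833 (permutation adjusted p = 0.19). With DESeq2 size factors rho was -0.800 (permutation adjusted p = 0.099). The direction was the same in UNT (rho = -0.622, permutation p = 0.035, adjusted p = 0.22) and PBS mice (rho = -0.627, permutation p = 0.044, adjusted p = 0.22), and the groups were not tested against each other. *Myc* and *Mir17hg* had r of -0.0111, -0.520 and 0.433 in UNT, PBS and RGLS4326 mice, none of which passed (smallest permutation adjusted p 0.37).

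Across all 34 mice, after the group means were subtracted, the genes whose level ran most like *Myc* were *Trmt61a* (r = 0.659), *Ftsj3* (0.653), *Ncoa5* (0.652), *Kti12* (0.652) and *Tnfrsf12a* (0.648). The genes that ran most opposite were *Mcoln2* (-0.711), *Acmsd* (-0.642), *Herc3* (-0.641), *Fam13a* (-0.624) and *Nqo1* (-0.622). Within a mouse, all genes come from the same library, and these values carry no test. *Trmt61a* and *Kti12* act in the modification of transfer RNA and *Ftsj3* in ribosome assembly, but a shared function of the listed genes was not tested. By the same measure *Max* (r = 0.524) ranked 73rd of the tested genes and *Mxi1* (r = -0.570) was near the opposite end, at rank 15620.

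The wider network of Max and of its relative Mlx was measured in 5 further genes, all called in PBS vs UNT, 3 higher and 2 lower. For this and the other lists, 82.1% of all genes were called, 43.1% higher and 39.0% lower in PBS vs UNT, and 33.8%, 15.3% higher and 18.5% lower, in RGLS4326 vs PBS. *Mlxipl*, which encodes the glucose-sensing factor ChREBP, was at 203 ± 19.5 CPM (SD, n = 12) in UNT and 33.4 ± 14.1 CPM (n = 11) in PBS mice, a difference of -2.60 on the log2 scale (SE 0.18, adjusted p = 1.8e-15 by edgeR) with no overlap. It was at 49.6 ± 14.7 CPM in RGLS4326 mice, higher than in PBS mice by 0.57 (SE 0.17, adjusted p = 0.015 by edgeR). This call was lost with the no-gene share in the model (0.17, adjusted p = 0.47) and within each number series alone, and the 4 RGLS4326 libraries with the largest no-gene share (62.1 to 68.5 CPM) did not overlap the other 7 (28.7 to 61.0 CPM). *Mlx*, the partner of ChREBP, was lower, differing by -0.46 (SE 0.06, adjusted p = 3.0e-09 by edgeR) in PBS mice, also with no overlap. *Mga* (0.46), *Mlxip* (0.32) and the S-phase antagonist *Mxd3* (0.48) were higher, the last of them not without PBS replicate 8 or 9 (adjusted p up to 0.060 by edgeR). Under 14 changed settings, *Mxd3* was called in 9, *Mlxip* in 11 and *Mga* in 13. After RGLS4326, *Mga*, *Mlx*, *Mlxip* and *Mxd3* did not pass, with log2 fold changes of 0.25, -0.11, -0.00418 and 0.18. Over the 48 alternative settings, *Mga* was called higher in 3 and *Mlx* lower in 1.

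Of the genes that host the miR-17 family, *Mcm7*, a subunit of the replicative helicase, was higher in PBS mice and *Mir17hg* lower. *Mcm7* was at 30.3 ± 4.30 CPM (SD, n = 12) in UNT and 48.7 ± 5.29 CPM (n = 11) in PBS mice with no overlap, a difference of 0.69 on the log2 scale (SE 0.07, adjusted p = 1.1e-10 by edgeR). After RGLS4326 it was at 46.5 ± 5.22 CPM, a difference of -0.07 on the log2 scale (SE 0.07, adjusted p = 0.48 by edgeR). *Mir17hg* was at 7.67, 10.0 and 11.6 CPM (lowest, median and highest) in UNT, at 1.098, 2.71 and 3.999 CPM in PBS and at 0.72, 3.25 and 13.9 CPM in RGLS4326 mice. The UNT mice were all above the PBS mice, and the RGLS4326 mice spanned both. Its log2 fold change was -1.97 (SE 0.33, adjusted p = 1.9e-06 by edgeR) in PBS vs UNT and 1.12 (SE 0.34, adjusted p = 0.014) in RGLS4326 vs PBS.

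Among RGLS4326 mice, *Mir17hg* differed with the percentage of reads outside genes. The 4 RGLS4326 libraries with the largest share had 8.65 to 13.9 CPM and the other 7 had 0.72 to 5.23 CPM. In UNT mice the 4 libraries with the largest share had 9.09 to 10.7 CPM, within the 7.67 to 11.6 CPM of the other 8. In PBS mice the 4 with the largest share had 2.72 to 3.999 CPM and the other 7 had 1.098 to 3.12 CPM. With that share in the model, the log2 fold change was -0.08 (adjusted p = 0.76 by edgeR) in PBS vs UNT and -0.30 (adjusted p = 0.36) in RGLS4326 vs PBS, and with the share without a unique alignment it was 0.93 (adjusted p = 0.24) in PBS vs UNT. In RGLS4326 vs PBS, limma-voom gave 0.67 (adjusted p = 0.15), and the values within number series 1, 2 and 3 were 0.14, 1.73 and 1.20, of which number series 2 alone passed. *Mir17hg* is counted here as the polyadenylated host RNA, whose model differs between RefSeq and GENCODE, so that the exons counted are not known, and the mature microRNAs were not measured.

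The transcription factors E2F1, E2F2 and E2F3, known to act with Myc on the miR-17-92 cluster, were called higher in PBS than in UNT mice in 3 of 3 cases. *E2f1* was at 6.62 ± 1.75 CPM (SD, n = 12) in UNT and 10.4 ± 1.997 CPM (n = 11) in PBS mice (log2 fold change 0.65, SE 0.13, adjusted p = 1.4e-05 by edgeR). *E2f3* differed by 0.40 and *E2f2* by 0.30. The call of *E2f2* was lost in 5 of 14 changed settings, each number series alone and either share of reads in the model, with its direction turned in 1 (-0.06, adjusted p = 0.87 by edgeR). *E2f1* lost its call in number series 2 alone and with the share without a unique alignment in the model (0.27, adjusted p = 0.48), and *E2f3* in number series 3 alone (0.12, adjusted p = 0.50). None of the 3 was called after RGLS4326, with log2 fold changes of 0.05 (*E2f1*), 0.06 (*E2f2*) and 0.17 (*E2f3*). All 3 have at least 1 match to that seed in their 3′UTR.

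Genes known to be induced by Myc lay on both sides. Of 28 growth genes, 14 were higher and 8 lower in PBS than in UNT mice, with a median log2 fold change of 0.14. The other 6 were not called, where 82.1% of all genes were called, so the share called was near that background. *Mthfd2*, a mitochondrial enzyme of the folate cycle, went from 6.33 to 21.4 CPM (log2 fold change 1.76, SE 0.10, adjusted p = 1.9e-18 by edgeR). *Cdk4*, the cyclin D kinase, was higher by 0.93 and *Cad*, which starts pyrimidine synthesis, by 0.85. *Shmt2* and *Shmt1*, serine hydroxymethyltransferases that supply the folate cycle, were lower, differing by -1.69 and -1.41, and *Hspd1*, a mitochondrial chaperone, by -1.37. These 6 had no overlap between the groups. Markers of proximal tubules, given with the other cell markers, were lower in the same mice, and their part in these values was not tested.

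After RGLS4326, 8 of the 28 growth genes were lower and 2 higher than in PBS mice, with a median log2 fold change of -0.13. The other 18 were not called, where 33.8% of all genes were called, again near the background. *Mthfd2* was at 15.3 CPM, a difference of -0.48 on the log2 scale (SE 0.10, adjusted p = 0.0015 by edgeR), and *Fbl*, which methylates ribosomal RNA, was lower, differing by -0.32 (SE 0.09, adjusted p = 0.0075). Both calls were lost in 3 of 14 changed settings. *Shmt1* (0.25, adjusted p = 0.048) and the transferrin receptor *Tfrc* (0.39, adjusted p = 0.049) were higher, calls that were lost in 21 and 25 of the 34 fits without 1 library. With the no-gene share in the model, 89 genes of all tested were called in RGLS4326 vs PBS, against 5280 without it.

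Of 9 genes known to be repressed by Myc, 5 were higher and 3 lower in PBS than in UNT mice, against 43.1% and 39.0% of all genes. *Clu*, a secreted chaperone of injured tubules, was higher by 3.31 (SE 0.20, adjusted p = 2.3e-17 by edgeR), and the cell cycle inhibitors *Cdkn1a* and *Cdkn2b* by 2.80 and 2.76. *Ndrg2* (-1.19), *Ndrg1* (-0.84) and *Cdkn1b* (-0.16) were lower, the last lost in 12 of 34 fits without 1 library. After RGLS4326, *Clu* was lower than in PBS mice, differing by -0.71 (SE 0.19, adjusted p = 0.0068 by edgeR) and *Cdkn1a* by -0.63 (SE 0.20, adjusted p = 0.020), 2 of the 3 of this list that were called, all lower. The calls of *Clu* and *Cdkn1a* were each lost in 4 of 14 changed settings.

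**Figure D5:**
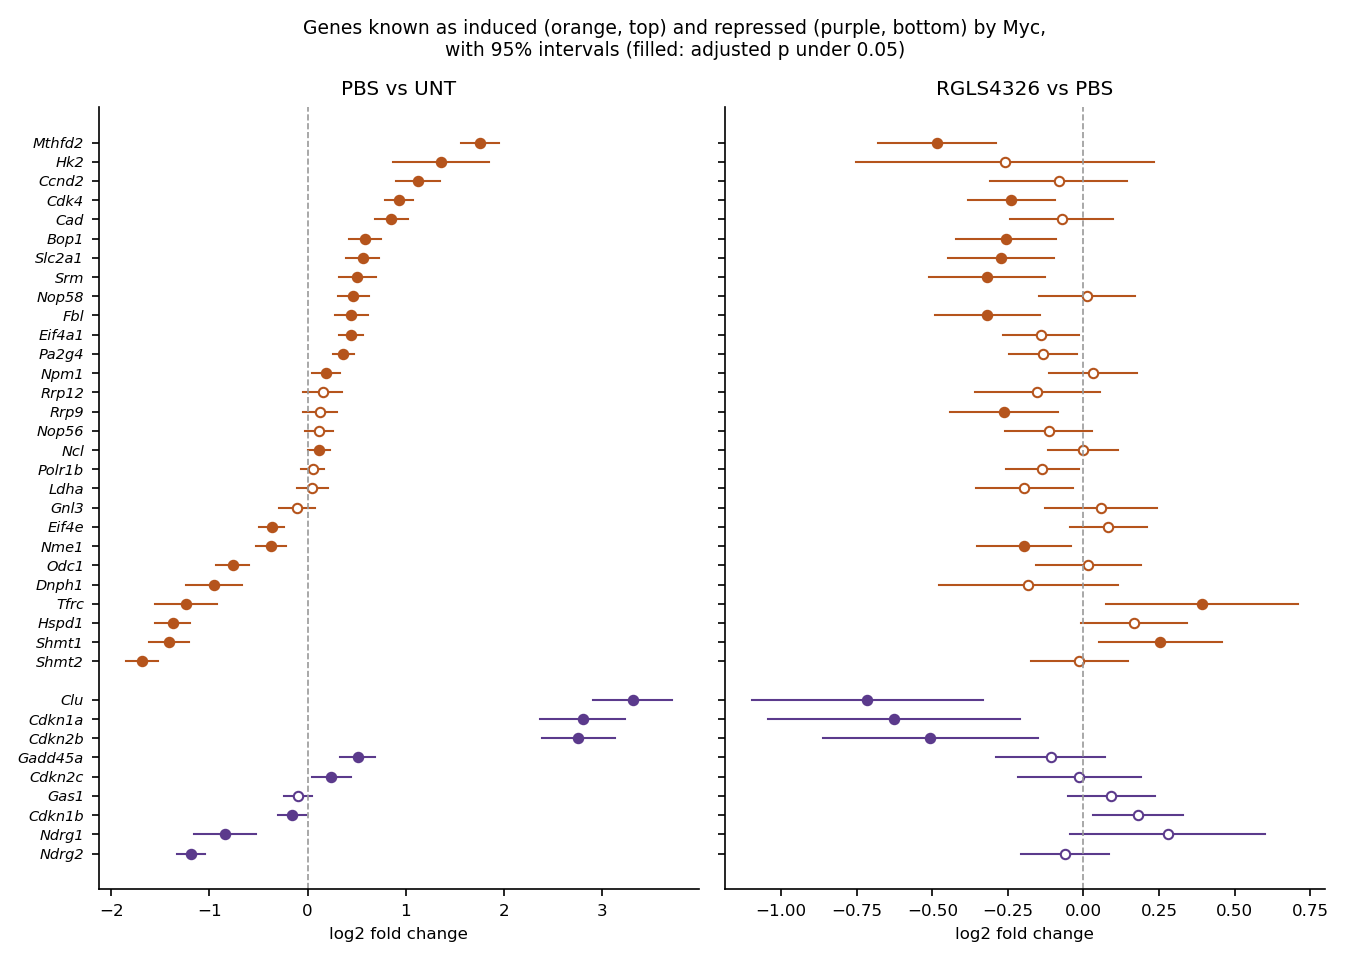
Log2 fold change (x axis, a different range in each panel) with 95% intervals for 28 genes known to be induced by Myc (orange, top) and 9 known to be repressed by it (purple, bottom), in PBS vs UNT and RGLS4326 vs PBS. Filled points passed an adjusted p of 0.05 by edgeR. In the first panel 14 induced genes lie to the right and 8 to the left, from 1.76 for *Mthfd2* to -1.69 for *Shmt2*.

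Among 14 cofactors and co-repressors of the network, 6 were higher and 1 lower in PBS mice and 7 were not called, where 82.1% of all genes were called. *Hdac1* (0.42, adjusted p = 3.9e-09 by edgeR), *Ruvbl2* (0.51, adjusted p = 8.3e-09), an ATPase that Myc recruits, and *Sin3a* (0.35, adjusted p = 2.8e-08), the scaffold used by the antagonists, were higher, and *Hdac2* (-0.28) was lower. After RGLS4326, 5 were lower, among them *Ruvbl2* (-0.25, adjusted p = 0.0073) and *Ruvbl1* (-0.23, adjusted p = 0.011), and *Hdac2* was higher (0.16, adjusted p = 0.037), a call lost in 8 of 34 fits without 1 library. *Ruvbl2* and *Ruvbl1* each lost their call in 4 of 14 changed settings, and *Hdac2* in 3. Of 10 genes that act on the stability of Myc protein, 4 were higher and 1 lower in PBS mice, led by the ubiquitin ligase component *Fbxo32* (1.12, SE 0.13, adjusted p = 1.5e-09), with *Gsk3b* (0.41) and *Aurka* (0.75) also higher and *Huwe1* (-0.21) lower, the last not without PBS replicate 10. *Huwe1* also lost this call in 6 of 14 changed settings, and *Gsk3b* and *Aurka* lost theirs in 2 each. After RGLS4326, *Cip2a*, an inhibitor of the phosphatase that destabilises Myc, was higher by 0.63 (SE 0.18, adjusted p = 0.0098), and *Huwe1* was higher by 0.23 (a call lost in 7 of 34 fits without 1 library). Of 14 changed settings, *Cip2a* lost its call in 3 and *Huwe1* in 5.

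Of 11 genes that act upstream of *Myc*, 9 were higher and 0 lower in PBS mice by edgeR and 2 were not called, where 82.1% of all genes were called, 43.1% higher. *Stat3* went from 101 to 299 CPM (log2 fold change 1.57, SE 0.07, adjusted p = 1.1e-21 by edgeR), *Axin2*, a target of Wnt signalling, from 6.29 to 17.4 CPM (1.46, adjusted p = 1.3e-16) and *Gata3*, a factor of the collecting duct, from 24.7 to 64.9 CPM (1.39, adjusted p = 8.3e-15). After RGLS4326, *Gata3* was lower, differing by -0.46 (SE 0.10, adjusted p = 0.0032) and *Cdk9* by -0.17 (adjusted p = 0.024, and 0.086 without PBS replicate 9), and the other 9 did not pass. *Gata3* and *Cdk9* each lost their call in 4 of 14 changed settings. All 6 cell cycle genes were higher in PBS mice, among them *Cdk1* (0.97), *Top2a* (0.93) and *Ccnb1* (0.67). After RGLS4326, 0 of these 6 were called by edgeR, with log2 fold changes from 0.06 to 0.40.

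Markers of several cell types differed between the groups together with *Myc*, and their part in the results was not tested. The summed level of 6 macrophage markers had a median of 110 CPM (range 93.4 to 166) in UNT, 1618 (786 to 2544) in PBS and 1193 (735 to 1532) in RGLS4326 mice. The sum of 6 fibroblast markers was 836 (611 to 1528), 5412 (3428 to 7115) and 5877 (4420 to 6518) CPM. The sum of 6 proximal tubule markers was 9751 (8832 to 11903), 1550 (682 to 2576) and 2469 (1676 to 2866) CPM, and that of 5 collecting duct markers 674 (529 to 874), 1537 (842 to 2270) and 895 (454 to 1989) CPM. All macrophage and fibroblast markers were called higher in PBS than in UNT mice and all proximal tubule markers lower. After RGLS4326, 4 of 6 macrophage and 3 of 5 collecting duct markers were lower, 4 of 6 proximal tubule markers were higher, and 0 of 6 fibroblast markers were called. The 5 endothelial markers summed to a median of 467, 383 and 472 CPM, with 2 higher and 3 lower in PBS than in UNT mice and 4 higher in RGLS4326 than in PBS mice. The 7 T and B cell markers summed to 5.86, 15.3 and 11.6 CPM, with 3 higher, 1 lower and 3 not called in PBS vs UNT and a median log2 fold change of -0.05, and 3 lower in RGLS4326 vs PBS. No marker of any list was at 0 in any library.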

How the data were processed

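Per the labels and the study's methods, the authors made stranded libraries from kidney RNA, trimmed reads with Trim Galore, aligned them to GRCm38 (mm10) with STAR and deposited raw HTSeq (version 0.6.1) counts per gene symbol, 1 table for each of 34 mice. The annotation and strand setting are not given in the sources used here. Exons of *Mxd3*, *Mlx* and *Mcm7* overlap counted genes on the opposite strand, and those of *Mxi1*, *Mxd4*, *Mlxip* and *Mlxipl* overlap other annotated genes on the opposite strand, so the counts of all 7 are uncertain. The members and lists were chosen with earlier results of these data known. Counts were scaled by TMM, filtered with filterByExpr and fitted in edgeR 4.0.16 (R 4.3.3) with 3 groups and no covariate. The SE is the absolute log2 fold change divided by the square root of the F statistic of edgeR. Intervals were computed from this SE with 31 degrees of freedom. Named in the text were all members, the wider network, the hosts, the E2F genes, from other lists the 3 smallest adjusted p per direction in PBS vs UNT and 2 in RGLS4326 vs PBS, and the 5 most alike and 5 most opposite genes to *Myc*, except 1 gene that is not reported here. Permutation tests were two-sided with 100000 resamples. Gene positions, lengths and 3′UTRs came from GENCODE M21 on GRCm38. Number series are the 3 series of library numbers in the file names, each with 3 or 4 mice of each group. Scripts were tested on simulated data in which far fewer genes differed than were called in PBS vs UNT, so that case was not covered. Alternatives were other size factors, DESeq2 1.42.0, limma-voom 3.58.1, other filters, number series and read shares as covariates, single number series, a replicate block and leaving out each library. P-values measure the spread between mice.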

Additional observations from a re-analysis of the deposited data

How the results depend on the processing

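The direction and call of *Myc* and *Mycl* in PBS vs UNT and RGLS4326 vs UNT held under every alternative run. Over the 24 results of the members, 282 of 336 values under changed settings and 779 of 816 with 1 library left out kept direction and call. *Myc* in RGLS4326 vs PBS was at -0.247 without the filter, -0.44, -0.169 and -0.175 in number series 1, 2 and 3 alone and -0.253 with the share in no gene, none of them called, and between -0.296 and -0.221 with 1 library left out. Members called in PBS vs UNT numbered 5 in number series 2 alone, 4 in number series 3 alone, 5 with the share in no gene and 3 with the share without a unique alignment, and the last gave 3 in RGLS4326 vs UNT. In RGLS4326 vs PBS they numbered 1 without the filter, 0 in number series 1, number series 3 and with the share in no gene, and 0 to 3 with 1 library left out. Fewer libraries were fitted in single number series, and the other causes were not tested. *Myc* relations passing by Pearson's r went from 1 to 0 without the 2 farthest mice and with DESeq2 size factors, and the rank of *Myc* per length went to 6 in UNT and 2 in PBS mice by the longest transcript.

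Directions turned as follows, all but the last value uncalled. In RGLS4326 vs PBS, *Mlxip* was at 0.00512 by limma-voom, 0.0115 without the filter, 0.00051 with number series as a covariate, 0.112 in number series 3 and 0.00204 with only the 2 groups, and between -0.0284 and 0.0249 with 1 library left out. Number series 1 gave -0.0777 (*E2f3*), 0.0252 (*Mcm7*), -0.0325 (*Mga*), 0.0189 (*Mnt*), -0.0229 (*Mxd1*) and 0.208 (*Mxi1*). Number series 2 gave -0.148 (*Mxd4*) and 0.0868 (*Mycn*), and number series 3 gave 0.00495 (*Mnt*), -0.0146 (*Mxd4*) and 0.0925 (*Mycn*). The share in no gene gave 0.0413 (*Mcm7*), -0.304 (*Mir17hg*), 0.0141 (*Mnt*), -0.105 (*Mxd1*) and 0.0153 (*Mxi1*), and the share without a unique alignment -0.0115 (*Mxd4*). With 1 library left out, *Mxd4* ranged from -0.0191 to 0.0351 and *Mxd1* from -0.0142 to 0.0699. In PBS vs UNT, the share in no gene gave 0.019 (*Cdkn1b*) and 0.0661 (*Mxd1*), and the share without a unique alignment 0.161 (*Cdkn1b*), -0.0577 (*E2f2*), 0.929 (*Mir17hg*) and -0.0263 (*Mxd3*). In RGLS4326 vs UNT, *Max* was at 0.04999 in number series 3 and from -0.0345 to 0.00335 with 1 library left out, and the share without a unique alignment gave -0.00869 (*E2f2*) and 1.87 (*Mir17hg*, adjusted p = 0.011). The cause was not tested.

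Replicate numbers were not treated as pairs. Of 11 same-numbered pairs, 2, 5 and 3 correlated above 0.1 in the 3 comparisons. Pairs with different numbers were not correlated, so these counts cannot decide whether the mice were paired. A replicate block left *Myc* at 2.33, -0.257 and 2.07 and moved the genes called from 12841 to 12781, 5280 to 5098 and 12157 to 12162. *Mycn* and *Mycl* had as few as 66 and 45 counts, which limits their precision.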
